A study of Mus musculus with 24 samples.

Results

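Late mammary carcinoma was compared with normal mammary gland at week 12, the last time point of an RNA sequencing series of the PyMT mouse model. The members were chosen by their labels alone, namely the 3 PyMT samples and the 3 FVB samples of week 12, which makes 6 of the 24 samples of the series. The other 18 samples were taken at weeks 6, 8 and 10. They entered the filter on low counts, the size factors of the normalized counts and the comparison of week 12 with the other weeks. PyMT samples were tumors of F1 females heterozygous for the MMTV-PyVT transgene on the FVB/N background, bred from transgenic males and FVB females, and FVB samples were mammary glands of FVB females of the same age without the transgene. The labels name no treatment. The transgene encodes the polyoma virus middle T protein under the long terminal repeat of mouse mammary tumor virus, which is active mainly in mammary epithelium, while stroma, vessels and immune cells are those of the host. Whole tissue was sequenced without sorting. Whether replicates shared a litter or a cage is not stated, and the p-values measure the spread between these 6 samples.

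Middle T is a membrane scaffold without enzymatic activity of its own. It binds Src family kinases, is phosphorylated by them and then recruits Shc1 and phosphatidylinositol 3-kinase, which feed the MAPK and AKT pathways. A resting mammary gland is mostly fat, in which a branched tree of ducts lies with an inner luminal and an outer myoepithelial layer, wrapped in basement membrane and supplied by fibroblasts and vessels, whereas a late carcinoma is a dense mass of dividing luminal-type cells.

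The week 12 libraries held between 6969375 and 8898264 counts. Both groups separated along the first principal component of the 500 most variable genes, which carried 70.5% of the variance, with PyMT samples between 40.3 and 70.6 and FVB samples between -66.6 and -39.7. Several libraries stood apart. In PyMT replicate 1 and FVB replicate 2 the smoothed number of genes at each count had a separate peak at a low count. The count at this peak is called the packet size here (12 and 9, respectively). Of the 24 libraries of the series 13 showed such a peak, and whether counts also gathered at its multiples was not tested. FVB replicate 1 carried skeletal muscle RNA: the 12 muscle genes Acta1, Ckm, Myh1, Myh2, Myh4, Mylpf, Tnnt3, Tnni2, Tnnc2, Actn3, Pvalb and Atp2a1 summed to 383753 normalized counts there, against 6654 and 1453 in the other FVB samples and 280, 475 and 1231 in PyMT, and they took 3.41% of its counts. FVB replicate 2 held the most epithelial and mitotic RNA of the 3 glands. Where leaving out a library moved a count of called list members by more than 1.5 times, the count without it is given.

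Of 14918 tested genes, 1156 were higher (7.75%) and 1936 lower (13.0%) in PyMT than in FVB, where a gene had to pass an adjusted p of 0.05 (edgeR, quasi-likelihood test, Benjamini-Hochberg over all tested genes) and change more than 2-fold. Below, "higher", "lower", "rose" and "fell" are used for genes only when they passed both limits, and all log2 fold changes are PyMT over FVB with their standard error and 3 samples per group. The median log2 fold change was 1.70 among the higher genes and -2.28 among the lower genes. Changes above 16-fold were found for 65 higher and 296 lower genes. Down-regulated genes made up 62.6% of all DEGs under TMM scaling, but 42.6% when libraries were scaled by their size only (2054 higher, 1527 lower), a choice that moved the median of all genes up by 0.32 on the log2 scale. Changes below are relative to the median of all tested genes under TMM scaling, which lay at -0.00046 on the log2 scale, and RLE scaling gave 64.3% of DEGs lower.

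The marker lists divided between luminal epithelium and the tissue around it. Among 17 luminal epithelial markers 11 were higher and none lower, with a median log2 fold change of 1.63, against 7.75% of all genes higher. The 16 adipocyte markers, the 12 fibroblast markers and the 12 endothelial markers were all lower, with medians of -4.07, -1.90 and -2.61, against 13.0% of all genes lower. In these bulk samples fewer cells of a type and less RNA per cell cannot be told apart.

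**Figure D1:**
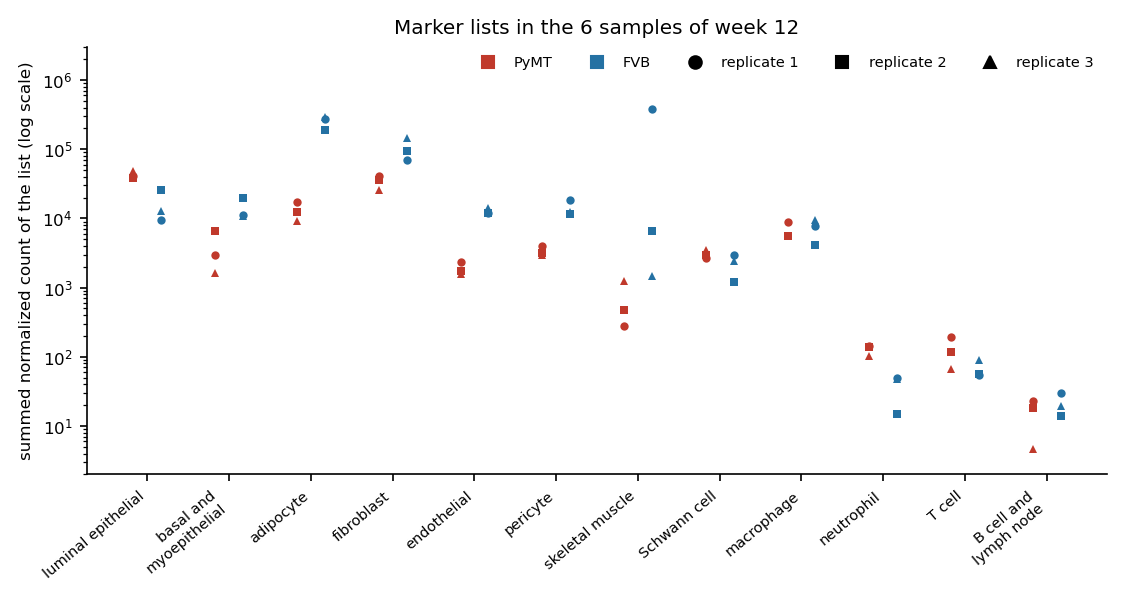
Summed normalized counts of 12 marker lists in each of the 6 week 12 samples, on a log axis, with PyMT and FVB replicates as separate points. Adipocyte, endothelial and fibroblast sums lie lower in every PyMT sample than in any FVB sample, macrophage sums overlap, and the muscle sum of FVB replicate 1 (383753) stands far above the muscle sums of the other samples.

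Epcam, an epithelial adhesion molecule, had 5353, 5280 and 6778 normalized counts in PyMT replicates 1 to 3 and 969, 2318 and 1337 in FVB replicates 1 to 3, a log2 fold change of 1.96 ± 0.32 (edgeR adjusted p = 0.0033). The groups did not overlap, and FVB replicate 2 was the highest gland. Ehf, an epithelium-specific ETS factor, rose most of the list (2.95 ± 0.44), from 483, 1650 and 645 in FVB to 6855, 6664 and 7311 in PyMT. Elf5, the ETS factor of the alveolar lineage, was higher by 2.12 ± 0.27, and the tight junction genes Cldn3 and Cldn7 by 2.16 ± 0.36 and 2.16 ± 0.39. E-cadherin (Cdh1) was higher by 1.63 ± 0.26. The keratins did not move together. Krt18 rose by 1.20 ± 0.37, whereas Krt8, its partner, had 1.39 ± 0.49 with an adjusted p of 0.068 and Krt19, a keratin of duct cells, had -1.18 ± 0.42 with an adjusted p of 0.0725, from 1624, 5423 and 2314 in FVB to 1385, 993 and 1625 in PyMT. The number of luminal markers called higher ran from 8 to 13 over the alternatives, and 1 was called lower without FVB replicate 1.

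Of 11 tested basal and myoepithelial markers 7 were lower (63.6%, against 13.0% of all genes) and none was higher, with a list median of -2.71. All 7 were genes of the contractile apparatus or its receptor. Smooth muscle actin (Acta2) had 544, 517 and 195 normalized counts in PyMT and 2607, 5195 and 3097 in FVB, a log2 fold change of -3.08 ± 0.43 (adjusted p = 0.00151). Myosin heavy chain Myh11 fell by 3.40, calponin Cnn1 by 3.33 and the oxytocin receptor Oxtr by 3.09 on the log2 scale, all without overlap between groups. The keratins and the transcription factor of basal cells did not pass the test: Krt5 had 0.41 ± 0.63, Krt14 1.05 ± 0.84 and Trp63 0.09 ± 0.48. Krt14 was uneven among the tumors, with 2878 normalized counts in PyMT replicate 2 against 424 and 288 in the others, and Krt5 was likewise highest there (1142 against 271 and 224). Vascular smooth muscle shares the contractile genes with myoepithelium, so the part of each in the lower values was not tested.

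All 16 adipocyte markers fell, and each of the alternatives run also called 16 of 16. Plin1, the coat protein of the adipocyte lipid droplet, had 461, 318 and 310 normalized counts in PyMT and 8916, 6108 and 9991 in FVB (-4.48 ± 0.28, adjusted p = 0.000116). Resistin (Retn) fell most, by 5.72 on the log2 scale, followed by leptin (Lep, -5.07 ± 0.73) and carbonic anhydrase 3 (Car3, -4.81 ± 0.36). The values of the glands and the tumors were separate for every marker. For the fatty acid carrier Fabp4 the highest tumor had 3399 normalized counts and the lowest gland 32114.

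The fibroblast and endothelial medians lay nearer to 0 than that of fat. Decorin (Dcn), a collagen-binding proteoglycan, had 1167, 1509 and 558 normalized counts in PyMT and 9198, 6609 and 13754 in FVB (-3.15 ± 0.41, adjusted p = 0.0012), whereas Col1a1 and Col3a1, the main chains of the interstitial fibrils, fell by 1.45 and 1.35 on the log2 scale. Without PyMT replicate 3, the tumor with the least stromal RNA, 6 of the 12 fibroblast markers were called. Von Willebrand factor (Vwf) fell most among endothelial markers, with 141, 170 and 114 in PyMT against 1488, 1933 and 2183 in FVB (-3.68 ± 0.23, adjusted p = 0.000116), and the VEGF receptors Kdr and Flt1 fell by 2.94 and 2.86. Of 8 pericyte markers 7 were lower (87.5%, against 13.0% of all genes). The exception was Notch3, the receptor of mural cells, at -0.53 ± 0.19.

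Macrophage markers behaved otherwise. None of 14 was called in either direction, against 20.7% of all genes, and their median was 0.03 on the log2 scale. Csf1r, the receptor for the macrophage growth factor, had 1088, 782 and 618 normalized counts in PyMT and 1353, 533 and 1736 in FVB (-0.50 ± 0.39). The groups overlapped, with FVB replicate 2 the lowest. Without both libraries with a packet size, 1 marker was called higher and 4 lower, and without PyMT replicate 1 or FVB replicate 2 alone 1 was called lower. Lymphocyte and granulocyte RNA was scarce: 3 of 11 T cell markers, 2 of 7 neutrophil markers and 0 of 11 B cell markers reached the filter on low counts. The 11 T cell markers summed to 191, 119 and 66.5 normalized counts in PyMT and 55.2, 56.7 and 88.6 in FVB, which overlapped. The 11 B cell markers summed to at most 29.6 in any sample. S100a8, an antimicrobial protein of neutrophils that some epithelia also make, was the exception, with 93.6, 66.2 and 54.5 in PyMT and 0, 0 and 3.28 in FVB (5.80 ± 1.10, adjusted p = 0.00616), while Ly6g, the defining neutrophil surface gene, was listed at 0 in all 6 samples.

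Of 7 genes used as markers of Schwann cells, 2 were higher and 2 lower (28.6% each, against 7.75% and 13.0% of all genes). Sox10, a transcription factor of neural crest and also of mammary progenitors, rose from 301, 465 and 306 normalized counts in FVB to 1663, 1682 and 2293 in PyMT (2.44 ± 0.24, adjusted p = 0.000412), and the cadherin Cdh19 rose by 2.81 ± 0.36. Prx, a protein of the myelin sheath, was among the lower genes (-1.44 ± 0.42), and leaving out any 1 library other than FVB replicate 2 ended its call.

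**Figure D2:**
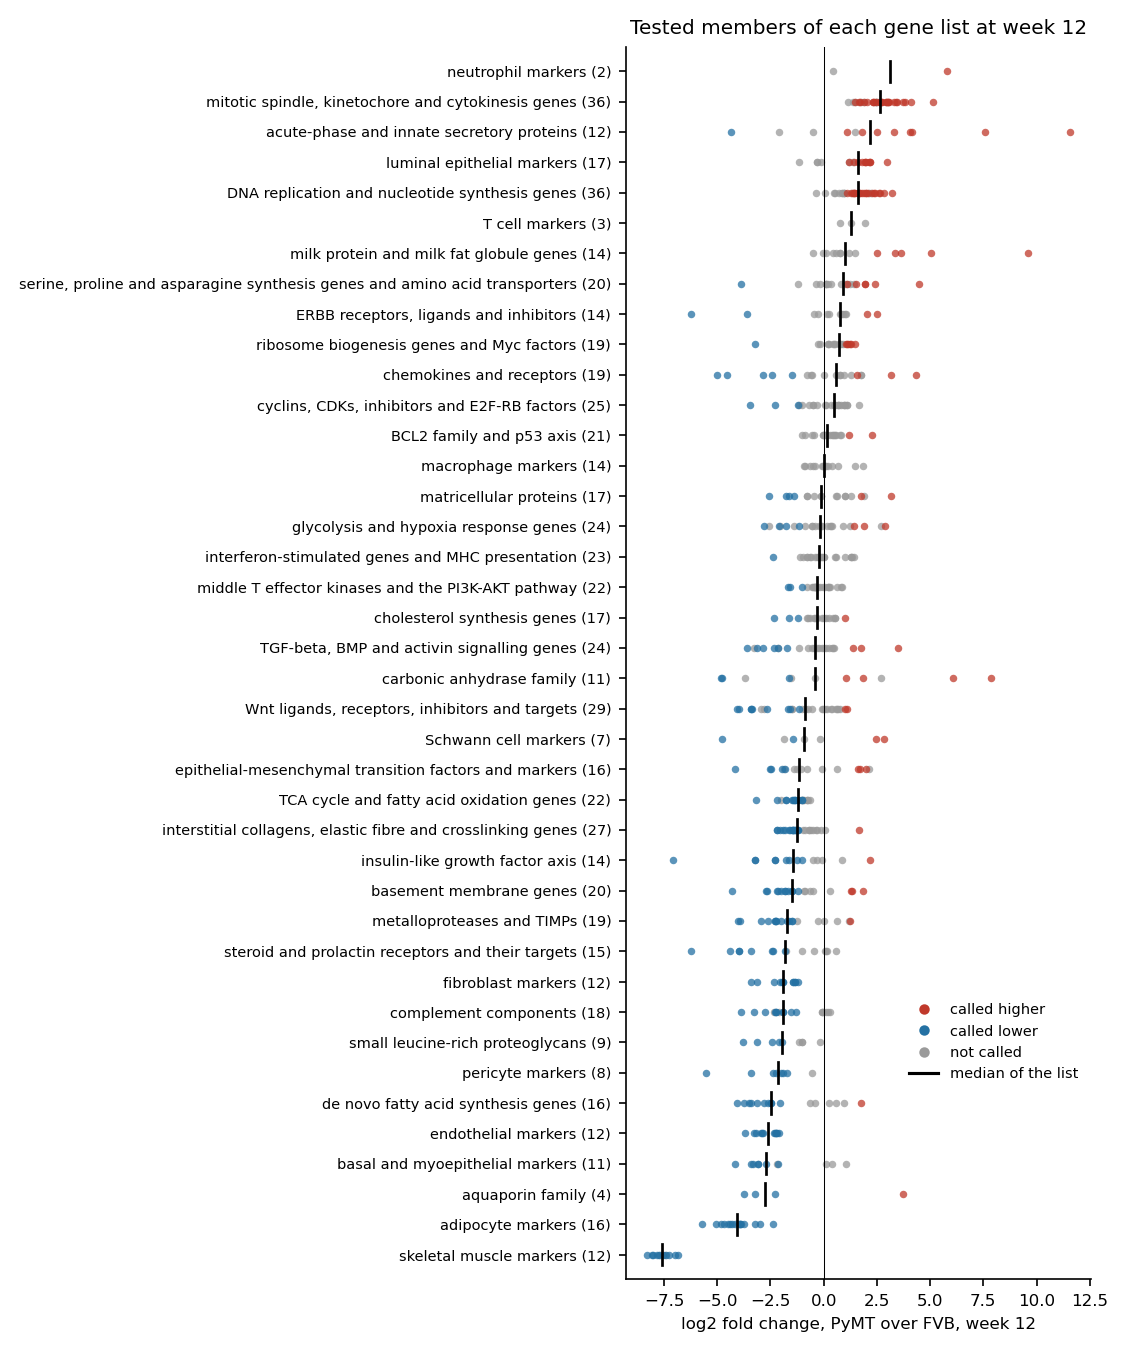
Log2 fold change (PyMT over FVB) at week 12 of every tested member of the gene lists, 1 point per gene and 1 line per list, with the list median as a bar and members past the limits in color. Mitosis, acute-phase and luminal lists lie to the right of 0 (medians 2.63, 2.17 and 1.63), and adipocyte, endothelial and basal lists to the left (medians -4.07, -2.61 and -2.71).

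Among higher genes with a mean of at least 100 normalized counts and no overlap between groups, the 12 with the largest log2 fold change were Saa2, Abpb, Wap, 2310057J18Rik, A2m, Car6, Saa1, Cldn2, Chrm3, Car12, Kcnn4 and Kif2c. Serum amyloid A2 (Saa2, chromosome 7 from 54007203 to 54009684 of mm9) had 288, 344 and 611 normalized counts in PyMT and no count in any FVB sample, which puts it at least 112-fold higher with a floor of 3 counts per library. Its near-identical neighbor Saa1 (chromosome 7 from 53995871 to 53998350) had 228, 356 and 633 in PyMT and 6.73, 0 and 0 in FVB. Reads of this pair can be split or lost in counting, so the level of each alone is uncertain.

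Abpb, an androgen-binding protein of secretory glands with close paralogs, had 1564, 1250 and 2474 normalized counts in PyMT against 2.69, 1.26 and 2.19 in FVB (9.71 ± 0.44, adjusted p = 4.12e-05). Car6 (chromosome 4 from 149561124 to 149575441 of mm9), the secreted carbonic anhydrase of saliva and milk, was the most even of the set, with 1059, 1048 and 983 in PyMT and 6.73, 0 and 6.56 in FVB (7.85 ± 0.49, adjusted p = 0.000116). Alpha-2-macroglobulin (A2m), a protease inhibitor, was the least even, with 36, 209 and 778 in PyMT, although its lowest tumor still exceeded the highest gland at 1.26. Cldn2, a claudin that forms paracellular cation pores, had 754, 612 and 530 in PyMT and 0, 0 and 12 in FVB. The calcium-activated potassium channel Kcnn4 (chromosome 7 from 25155282 to 25170228) had 4176, 3350 and 5506 in PyMT against 84.8, 58 and 141 in FVB (5.56 ± 0.39, adjusted p = 0.000147). For all 12 genes every tumor lay above every gland, as the rule for naming them required.

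The 12 genes that fell most by the same rule were Tnnt3, Atp2a1, Pgam2, Cyp3a57, Nrxn3, Myl1, Klhl31, Myh2, Rarres1, Casq1, Scn4a and Tcap, 9 of which are genes of skeletal muscle whose FVB values came mostly from replicate 1. Tnnt3, fast skeletal troponin T, had 20901 normalized counts in FVB replicate 1 against 791 and 86.4 in replicates 2 and 3, and 4.11, 22.4 and 38.8 in PyMT. Of the 12 muscle markers 10 were called lower with all samples (83.3%, against 13.0% of all genes). The number was 4 without FVB replicate 1 and 6 without both libraries with a packet size. It was 0 without any 1 of the PyMT replicates and in the fit of all 24 samples.

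Without FVB replicate 1, a choice made after the values were seen, the largest decreases were those of Cyp3a57, Nrxn3, Rarres1, Itih2, Nos1, Areg, Tmem182, Trhde, Cyp2e1, Dmrt2, Kcna1 and Retn. The xenobiotic-metabolizing cytochrome Cyp3a57 (chromosome 5 from 146106148 to 146151381 of mm9) had 0, 4.27 and 0.924 normalized counts in PyMT and 187, 815 and 370 in FVB. Its log2 fold change was -7.93 ± 0.88 with all samples and -8.31 ± 0.71 without FVB replicate 1. Cyp2e1, the ethanol-inducible cytochrome, had 8335, 11322 and 4576 in FVB and 270, 141 and 25 in PyMT. Neurexin 3 (Nrxn3), a presynaptic adhesion protein, had 0, 0 and 3.7 in PyMT and 148, 335 and 561 in FVB. Nos1, the neuronal nitric oxide synthase, had 0, 6.41 and 0.924 in PyMT and 464, 315 and 297 in FVB. Every gland lay above every tumor for the genes given here, because the rule kept only genes without overlap over all 6 samples.

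**Figure D3:**
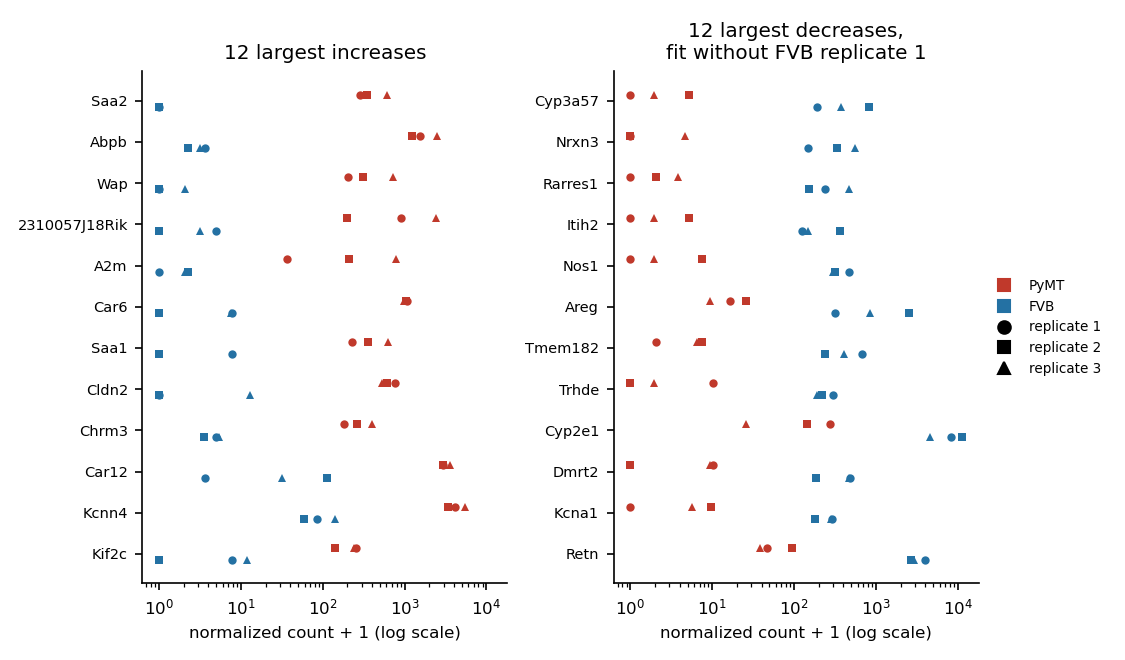
Normalized counts plus 1, on a log axis, of the 12 genes with the largest increase (all 6 samples in the fit) and the 12 with the largest decrease (fit without FVB replicate 1) in each PyMT and FVB sample of week 12. No gene has overlapping groups, because the rule left out genes that overlap, and the FVB values of Saa2 are all 0.

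Of 14 tested milk protein and milk fat globule genes 5 were higher (35.7%, against 7.75% of all genes) and none lower, with a median of 1.00. Kappa-casein (Csn3, chromosome 5 from 88354604 to 88361690 of mm9), which keeps casein micelles in suspension, had 29764, 33560 and 39221 normalized counts in PyMT and 2880, 4076 and 3314 in FVB (3.37 ± 0.23, adjusted p = 0.000147). Whey acidic protein (Wap) had 206, 313 and 716 in PyMT and 0, 0 and 1.09 in FVB, and the related Expi rose by 5.03 ± 0.22, from 151, 125 and 112 to 3624, 4131 and 4463 (adjusted p = 4.12e-05). Alpha-lactalbumin (Lalba), the regulatory subunit of lactose synthase, rose by 3.62 ± 0.35 and the milk fat globule mucin Muc15 by 2.52 ± 0.26.

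The calcium-sensitive caseins did not pass the test at this age. Beta-casein (Csn2) had 1786, 313 and 2554 normalized counts in PyMT and 1418, 21.4 and 1413 in FVB (0.76 ± 1.12, adjusted p = 0.658). Replicate 2 was the lowest of both groups, and the groups overlapped. Csn1s1 had 0.78 ± 0.99 and Csn1s2a 0.09 ± 1.18, with the same pattern of a low FVB replicate 2 (160 and 2.52). At weeks 6, 8 and 10 the FVB samples held at most 805 normalized counts of Csn2, so both high glands of week 12 exceeded every younger gland. Per kilobase of exon, kappa-casein was the most abundant of the milk genes named here in PyMT, at 971 RPKM, ahead of Lalba (662), Expi (394), Csn1s1 (268), Csn2 (163) and Wap (17.6).

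Of 15 tested steroid and prolactin receptors and targets 8 were lower (53.3%, against 13.0% of all genes) and none higher, with a median of -1.84. The estrogen receptor gene Esr1 had 264, 373 and 179 normalized counts in PyMT and 1590, 1559 and 1316 in FVB (-2.41 ± 0.27, adjusted p = 0.000569). The progesterone receptor gene Pgr had 31.9, 83.3 and 14.8 against 556, 1491 and 798 (-4.42 ± 0.63). Every tumor lay below every gland for both receptors. Amphiregulin (Areg), the EGF receptor ligand through which estrogen drives duct growth, fell most, from 313, 2534 and 849 to 15.4, 24.6 and 8.32 (-6.22 ± 0.84, adjusted p = 0.00138). Foxa1, the pioneer factor of the estrogen receptor, fell by 3.99 on the log2 scale, Wnt4, a progesterone target, by 3.41 and Cited1, a coactivator of hormone-sensing cells, by 4.00. Gata3, which marks luminal cells at large, had 0.56 ± 0.24 (adjusted p = 0.122), and the prolactin-pathway factors Stat5a and Stat5b had 0.10 ± 0.16 and 0.07 ± 0.21, while the prolactin receptor gene Prlr fell by 1.84.

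Promoters of DNA replication and mitosis genes carry known cell cycle elements: E2F sites at genes of the G1/S transition and the cell cycle genes homology region (CHR) at genes of G2 and mitosis. The 250 bases before the start of each gene in RefSeq (GRCm38.p6) were searched on both strands for E2F letters (TTTCCCGC, TTTCGCGC, TTTGCCGC or TTTGGCGC) and CHR letters (TTTGAA). Shown are the 3 called genes of each list with a match and the smallest adjusted p, all on the minus strand, 5′ to 3′, with matches in capitals on either strand.
Mcm6, chr1:128359706-128359865: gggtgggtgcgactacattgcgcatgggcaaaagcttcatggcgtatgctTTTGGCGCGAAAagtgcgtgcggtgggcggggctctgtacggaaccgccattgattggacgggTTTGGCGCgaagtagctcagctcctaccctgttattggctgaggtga
Pola1, chrX:93632236-93632343: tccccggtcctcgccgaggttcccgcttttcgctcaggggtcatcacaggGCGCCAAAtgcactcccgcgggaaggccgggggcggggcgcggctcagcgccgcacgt
Rfc3, chr5:151651209-151651268: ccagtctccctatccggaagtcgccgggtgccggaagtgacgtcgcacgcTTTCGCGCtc
Kif2c, chr4:117178820-117178925: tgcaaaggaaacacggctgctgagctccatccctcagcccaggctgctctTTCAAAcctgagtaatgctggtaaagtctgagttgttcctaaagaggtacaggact
Top2a, chr11:99024190-99024418: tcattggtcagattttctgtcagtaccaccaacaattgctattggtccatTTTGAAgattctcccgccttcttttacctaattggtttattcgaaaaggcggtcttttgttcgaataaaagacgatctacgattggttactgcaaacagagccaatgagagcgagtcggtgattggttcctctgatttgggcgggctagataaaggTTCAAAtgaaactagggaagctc
Mki67, chr7:135716422-135716545: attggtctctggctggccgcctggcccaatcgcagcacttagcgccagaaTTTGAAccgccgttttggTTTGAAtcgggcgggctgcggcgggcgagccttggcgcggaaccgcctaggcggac

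Mcm6 held 3 E2F matches, 2 of them overlapping on opposite strands, and Top2a and Mki67 each held 2 CHR matches. The E2F letters were found at 4 of 17 replication genes called higher that had a RefSeq promoter (23.5%), against 2.16% of all 27025 genes with a promoter and 3.86% of the 9621 tested genes among them. The CHR letters were found at 12 of 23 mitosis genes called higher (52.2%), against 18.3% of all genes with a promoter and 12.7% of the tested genes among them. Over all tested members of the lists, called or not, the E2F letters were found at 8 of 29 replication genes (27.6%). The CHR letters were found at 13 of 30 mitosis genes (43.3%). Whether a match goes with being called higher was not tested. Such a match is a description of the letters in this window only.

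Of 36 genes of DNA replication and nucleotide synthesis 21 were higher (58.3%, against 7.75% of all genes) and none lower, with a median of 1.62. Fen1, the flap endonuclease of lagging-strand synthesis, rose by 2.62 ± 0.25, from 68.6, 84.4 and 61.2 normalized counts in FVB to 474, 352 and 455 in PyMT (adjusted p = 0.000372). Subunits of the MCM helicase that unwinds DNA were higher for Mcm2 (2.59 ± 0.23), Mcm6 (2.38 ± 0.42), Mcm5 (1.98 ± 0.54) and Mcm4 (1.40 ± 0.43), but Mcm3 (0.97 ± 0.57) and Mcm7 (0.93 ± 0.34) did not pass. FVB replicate 2 was the highest gland for Mcm3, at 384 against 64.6 and 110, and overlapped the tumors there. Among the ribonucleotide reductase genes, Rrm1 rose by 2.07 ± 0.20 and Rrm2 by 2.83 ± 0.66. The sliding clamp Pcna had a log2 fold change of 0.98 ± 0.28 and missed the limit of 2-fold. The count of called members was 11 without PyMT replicate 3 and 11 in the fit of all 24 samples, 14 without FVB replicate 1 or 3, 6 when tested against a fold change of 2, 28 without FVB replicate 2 and 27 without both libraries with a packet size.

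Of 36 genes of the spindle, kinetochore and cytokinesis 27 were higher (75%, against 7.75% of all genes) and 9 did not pass, with a median of 2.63, and for 34 of the 36 every tumor lay above every gland, against 21.5% of all genes. The kinesin Kif2c, which depolymerizes microtubules at kinetochores, had 252, 139 and 243 normalized counts in PyMT and 6.73, 0 and 10.9 in FVB (5.15 ± 0.78, adjusted p = 0.0022). The kinetochore subunits Spc24 and Ndc80 rose by 4.08 ± 0.62 and 3.81 ± 0.95 and cyclin B1 (Ccnb1) by 3.73 ± 0.87. Topoisomerase 2-alpha (Top2a) had 2313, 1818 and 2568 in PyMT and 96.9, 466 and 104 in FVB, and the proliferation marker Mki67 had 3779, 3144 and 4740 against 253, 1027 and 254. FVB replicate 2 was the highest gland for 34 of these 36 genes, which summed to 6939 there against 1550 and 1890 in the other glands. Without FVB replicate 2 all 36 members were called, with a median of 4.15, and without both libraries with a packet size also 36. The count was 14, 14, 11 and 13 without PyMT replicate 1, 2 or 3 or FVB replicate 3, respectively, 20 without FVB replicate 1, 18 in the fit of all 24 samples and 8 when tested against a fold change of 2.

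Of 25 tested cyclins, cyclin-dependent kinases, inhibitors and E2F-RB factors none was higher by these limits and 3 were lower (12.0%, near the 13.0% of all genes), with a median of 0.46. Cyclin D2 (Ccnd2) fell by 3.46 on the log2 scale, from 2752, 2081 and 3556 normalized counts in FVB to 283, 292 and 164 in PyMT (adjusted p = 0.000296). Cyclin D1 (Ccnd1), the D-type cyclin of mammary epithelium, had 1303, 1616 and 2055 in PyMT and 529, 1459 and 386 in FVB (1.12 ± 0.46, adjusted p = 0.108). The groups overlapped for it, through FVB replicate 2. The inhibitors Cdkn1c and Cdkn2c were the other lower genes (-2.30 ± 0.31 and -1.22 ± 0.26). E2f1, E2f2 and E2f3 had log2 fold changes of 0.52, 1.11 and 0.81, and the retinoblastoma gene Rb1 of 0.67 ± 0.21. Without FVB replicate 2, or without both libraries with a packet size, 3 members were called higher.

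Of 22 middle T effector kinases and PI3K-AKT genes none was higher and 3 were lower (13.6%, near the 13.0% of all genes), with a median of -0.31. Without FVB replicate 2, or without both libraries with a packet size, 1 was called higher. Src had 866, 803 and 1023 normalized counts in PyMT and 331, 725 and 487 in FVB (0.85 ± 0.28, adjusted p = 0.0502), Shc1 -0.48 ± 0.16 and Pik3ca -0.42 ± 0.16. Pik3r1, the p85-alpha regulatory subunit of PI3-kinase, was at 0.83 ± 0.21 (adjusted p = 0.0202), below the 2-fold limit. Among the lower genes were the Src family kinase Fyn (-1.56 ± 0.21) and Akt2, the AKT isoform of insulin-responsive tissue (-1.69 ± 0.23).

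Of 14 ERBB receptors, ligands and inhibitors 2 were higher and 2 lower (14.3% each, against 7.75% and 13.0% of all genes). Erbb4, a receptor of differentiating mammary cells, rose from 83.4, 112 and 51.4 to 403, 357 and 234 normalized counts (2.05 ± 0.36, adjusted p = 0.00425), while Egfr (-0.26 ± 0.27) and Erbb2 (0.24 ± 0.31) did not pass and Erbb3, at 0.90 ± 0.23 with an adjusted p of 0.0202, stayed below 2-fold. Among neuregulins, ligands of Erbb3 and Erbb4, Nrg2 rose by 2.49 ± 0.48 and Nrg4, an adipose factor, fell by 3.61 on the log2 scale. Erbb4 and Nrg2 were not called in the fit of all 24 samples.

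Of 14 genes of the insulin-like growth factor axis 9 were lower (64.3%, against 13.0% of all genes) and 1 higher, with a median of -1.44. Igf2 (chromosome 7 from 149836673 to 149852721 of mm9), an imprinted growth factor, had 110, 122 and 96.2 normalized counts in FVB and 0, 0 and 1.85 in PyMT (-7.06 ± 0.93, adjusted p = 0.0012). H19 (chromosome 7 from 149761434 to 149764048), the imprinted RNA next to it, had 206, 107 and 92.4 in PyMT and 3022, 761 and 177 in FVB (-3.25 ± 0.88), with FVB replicate 3 inside the range of the tumors. Igf1 fell by 2.27, its receptor gene Igf1r by 1.79 and the insulin receptor gene Insr by 1.25 on the log2 scale. The binding protein genes split: Igfbp4, Igfbp6 and Igfbp7 fell, whereas Igfbp5 rose from 22448, 20407 and 16460 to 84869, 94534 and 82388 (2.19 ± 0.20, adjusted p = 0.000355). Igfbp5 was the only called increase of the list with all 6 samples, at 1711 RPKM in PyMT and 375 in FVB, and without PyMT replicate 2 the list held 2.

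**Figure D4:**
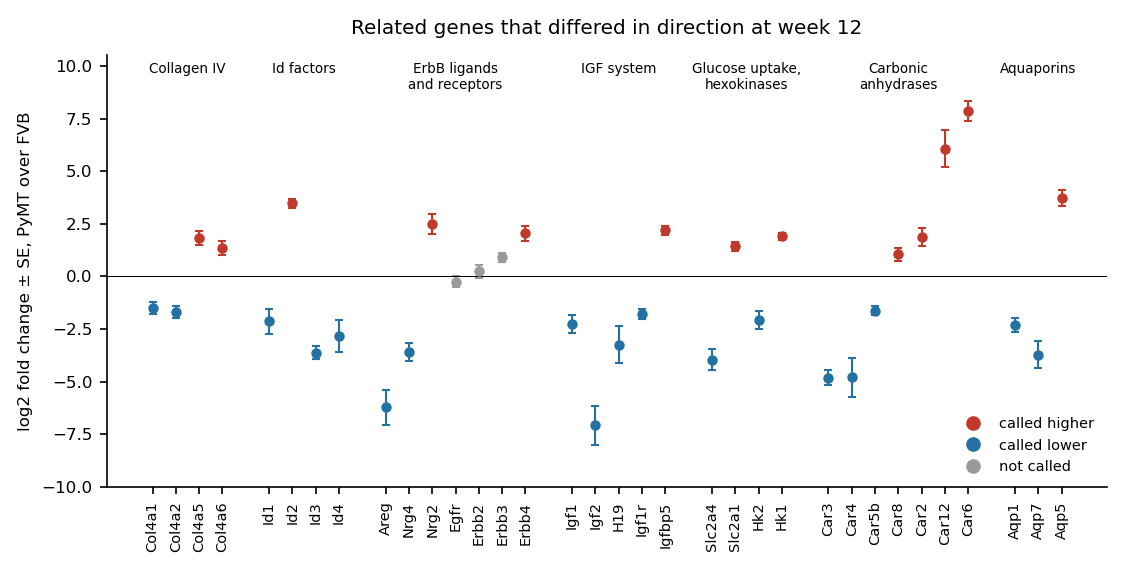
Log2 fold change (PyMT over FVB) with its standard error at week 12 for members of the collagen IV, Id, ERBB, IGF, glucose, carbonic anhydrase and aquaporin groups. Within each group some members lie above 0 and others below, for example Id2 at 3.47 against Id3 at -3.62 and Aqp5 at 3.74 against Aqp7 at -3.73.

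Of 29 tested Wnt ligands, receptors, inhibitors and targets 9 were lower and 2 higher (31.0% and 6.90%, against 13.0% and 7.75% of all genes), with a median of -0.86. The feedback target Axin2 fell by 3.43 on the log2 scale, from 576, 344 and 501 normalized counts to 15.4, 85.5 and 26.8 (adjusted p = 0.00389), and the stem cell receptor Lgr5 fell by 2.66. The ligand Wnt2 and the secreted inhibitor Wif1 fell by 3.99 and 4.09, and the vascular receptor Fzd4 by 3.38. Both genes called higher, Wnt5b (1.00 ± 0.29) and Fzd6 (1.10 ± 0.23), lay just past 2-fold, and neither was called without FVB replicate 1. The list held 1 higher member without PyMT replicate 2 or 3 or without FVB replicate 2 or 3. Beta-catenin (Ctnnb1) had 0.41 ± 0.19.

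In the TGF-beta and BMP group 3 of 24 tested genes were higher and 6 lower (12.5% and 25.0%, against 7.75% and 13.0% of all genes), with a median of -0.39. The ligands Tgfb2 and Tgfb3 rose by 1.75 ± 0.27 and 1.40 ± 0.23, with Tgfb3 at 2476, 3494 and 2652 normalized counts in PyMT and 1070, 1405 and 913 in FVB, while Tgfb1 had -0.73 ± 0.44 and the co-receptor Tgfbr3 fell by 1.71. The Id proteins, inhibitors of basic helix-loop-helix factors, went both ways. Id2, a factor of alveolar development, rose from 147, 185 and 229 to 1810, 2248 and 1966 (3.47 ± 0.22, adjusted p = 0.000116), whereas Id1, Id3 and Id4 fell by 2.14, 3.62 and 2.84 on the log2 scale. Every tumor lay above every gland for Id2 and below for Id1, Id3 and Id4. The 6 lower calls became 3 without FVB replicate 2 and 2 without PyMT replicate 3.

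Of 20 tested basement membrane genes 12 were lower and 3 higher (60% and 15.0%, against 13.0% and 7.75% of all genes), with a median of -1.48. The widely used collagen IV chains Col4a1 and Col4a2, a head-to-head pair on chromosome 8, fell by 1.50 and 1.68 on the log2 scale. The chains Col4a5 (chromosome X from 137909928 to 138123778 of mm9) and Col4a6 (chromosome X from 137599946 to 137908619), a head-to-head pair as well, rose by 1.83 ± 0.34 and 1.34 ± 0.32. Col4a5 had 1479, 1620 and 2014 normalized counts in PyMT and 385, 786 and 314 in FVB. The laminin alpha chains Lama2 (-2.65 ± 0.38), Lama3 (-2.13 ± 0.36) and Lama4 (-1.20 ± 0.22) fell. The beta chain Lamb3 rose from 418, 336 and 376 to 925, 843 and 916 (1.29 ± 0.16, adjusted p = 0.000894). Both Col4a pairs and Lamb3 showed no overlap between groups.

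Of 27 interstitial collagens and elastic fiber genes 16 were lower (59.3%, against 13.0% of all genes) and 1, Col12a1, was higher with all 6 samples, and 2 were higher without FVB replicate 2 or without both libraries with a packet size. Col12a1, a fibril-associated collagen of stressed tissue, rose from 543, 916 and 625 to 2405, 1292 and 2632 normalized counts (1.65 ± 0.31, adjusted p = 0.00599). The number called lower became 9, 6 and 10 without PyMT replicate 2, PyMT replicate 3 and FVB replicate 3. Of 9 small leucine-rich proteoglycans 5 fell (55.6%, against 13.0% of all genes), from prolargin (Prelp, -3.81 ± 0.36) to lumican (Lum, -1.95 ± 0.34). Biglycan (Bgn) had -0.15 ± 0.28.

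Among 17 matricellular proteins 2 were higher and 4 lower (11.8% and 23.5%, against 7.75% and 13.0% of all genes), and without FVB replicate 1 4 were higher. Osteopontin (Spp1), an integrin ligand, had 23863, 25994 and 29507 normalized counts in PyMT and 4376, 2115 and 2608 in FVB (3.17 ± 0.31, adjusted p = 0.000372). Thrombospondin 1 (Thbs1) rose by 1.73 ± 0.35, while its relatives Thbs2 and Thbs3 fell by 1.40 and 1.75. Tenascin C (Tnc), the tenascin of tumor stroma, had 1538, 402 and 1296 in PyMT and 480, 422 and 487 in FVB (1.27 ± 0.42, adjusted p = 0.0539), with PyMT replicate 2 below all glands. Tenascin XB (Tnxb) fell by 2.56.

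Of 19 tested metalloproteases and their inhibitors 13 were lower (68.4%, against 13.0% of all genes) and 1 higher, with a median of -1.74. Gelatinase A (Mmp2) had 843, 852 and 471 normalized counts in PyMT and 3016, 2052 and 5752 in FVB (-2.28 ± 0.40), gelatinase B (Mmp9) 12.3, 10.7 and 4.62 against 199, 93.3 and 143 (-3.92 ± 0.56), and the membrane collagenase Mmp14 fell by 1.51. The inhibitors Timp2, Timp3 and Timp4 fell by 1.99, 2.31 and 4.04, and Timp1 had 1.18 ± 0.48 (adjusted p = 0.106). The increase was that of Mmp16 (1.26 ± 0.31), which was not called without PyMT replicate 2. Mmp7 was listed at 0 in all 6 samples.

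Of 16 tested genes of the epithelial-mesenchymal transition 3 were higher and 5 lower (18.8% and 31.2%, against 7.75% and 13.0% of all genes). The 3 higher genes were epithelial, namely Cdh1, the tight junction gene Ocln (1.72 ± 0.36) and the splicing regulator Esrp1 (1.99 ± 0.38). The 5 mesenchymal genes that fell were Twist1 (-4.18 ± 0.36), Zeb2 (-2.53 ± 0.28), Snai2 (-2.49 ± 0.69), Cdh11 (-1.94 ± 0.39) and vimentin (Vim, -1.82 ± 0.29). Twist1, a mesenchymal transcription factor, had 11.3, 17.1 and 11.1 normalized counts in PyMT and 213, 271 and 260 in FVB. Fibronectin (Fn1) had -1.08 ± 0.36 (adjusted p = 0.0566), and N-cadherin (Cdh2) -0.77 ± 0.67. The fibroblast markers moved the same way in these samples, and their part in the mesenchymal decreases was not tested.

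Of 16 genes of fatty acid synthesis 10 fell (62.5%, against 13.0% of all genes) and 1 rose, with a median of -2.49, and without PyMT replicate 2 2 rose. Fatty acid synthase (Fasn) had 21432, 7794 and 19944 normalized counts in PyMT and 357772, 101540 and 226111 in FVB (-3.75 ± 0.55, adjusted p = 0.00191), and the desaturase Scd1 27679, 16278 and 16860 against 370284, 187940 and 482950 (-4.05 ± 0.41). The carboxylases Acaca and Acacb fell by 3.12 and 2.80 and the carbohydrate-responsive factor Mlxipl by 3.50. The exception was Srebf1, the sterol-responsive factor that activates these genes, which rose from 6416, 3640 and 4575 to 13175, 15063 and 19753 (1.76 ± 0.27, adjusted p = 0.00233). The adipocyte markers fell in the same samples. Scd2, the desaturase isoform less tied to fat, had 0.24 ± 0.18, and Fads2 had 0.94 ± 0.22.

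Genes of the TCA cycle and fatty acid oxidation had 12 of 22 lower and none higher, with a median of -1.19, against 13.0% of all genes, but only 2 were called without FVB replicate 1, the muscle-rich gland, and 4, 3 and 2 without PyMT replicates 1, 2 and 3. Citrate synthase (Cs) had 2364, 1468 and 1983 normalized counts in PyMT and 8440, 3118 and 3827 in FVB (-1.36 ± 0.38), with FVB replicate 1 highest. Of 17 cholesterol synthesis genes 3 were lower and 1 higher (17.6% and 5.88%, near the 13.0% and 7.75% of all genes). The lower genes were Insig1 (-2.34 ± 0.39), Nsdhl (-1.61 ± 0.22) and Fdft1 (-1.21 ± 0.25), and the higher gene was squalene epoxidase (Sqle, 1.02 ± 0.21). Sqle was not called without PyMT replicate 1 or 3, without FVB replicate 2 or 3, or without both libraries with a packet size. Hmgcs1 was not analysed here.

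Of 24 glycolysis and hypoxia genes 3 were higher and 4 lower (12.5% and 16.7%, near the 7.75% and 13.0% of all genes), with a median of -0.18. The higher genes numbered 5 without FVB replicate 1, without FVB replicate 2 or without both libraries with a packet size. Hexokinase 1 (Hk1) had 2593, 2738 and 2892 normalized counts in PyMT and 741, 736 and 803 in FVB (1.90 ± 0.16, adjusted p = 0.000267), whereas hexokinase 2 (Hk2), the isoform of muscle and fat, fell from 4061, 1210 and 1608 to 614, 466 and 499 (-2.08 ± 0.42). Glucose transporter 1 (Slc2a1) rose by 1.43 ± 0.23, and the insulin-dependent transporter of fat and muscle (Slc2a4) fell by 3.95. Aldolase C (Aldoc) rose by 2.89 ± 0.38, while Aldoa, at 6992, 5169 and 14900 in PyMT and 35906, 6425 and 8551 in FVB, did not pass. The hypoxia targets Vegfa and Bnip3 fell by 1.78 and 2.81, and Car9 had 2.69 ± 0.95 (adjusted p = 0.0672).

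Of 20 amino acid genes 6 were higher (30.0%, against 7.75% of all genes) and 1 lower, with a median of 0.89. The higher genes were the transporters Slc6a14 (4.50 ± 0.96) and Slc7a5 (1.95 ± 0.37), the proline synthesis genes Pycr1 (2.39 ± 0.60) and Aldh18a1 (1.54 ± 0.21), and the serine hydroxymethyltransferases Shmt1 (1.96 ± 0.29) and Shmt2 (1.11 ± 0.20). Aldh18a1, which makes the precursor of proline, had 657, 727 and 863 normalized counts in PyMT and 214, 320 and 265 in FVB. The glutamine transporter Slc1a5 fell instead, from 8435, 5290 and 8931 to 628, 393 and 463 (-3.89 ± 0.29, adjusted p = 0.000192). Phgdh, the first enzyme of serine synthesis, had -0.38 ± 0.48.

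Of 19 genes of ribosome biogenesis and the MYC network 6 were higher (31.6%, against 7.75% of all genes) and 1 lower, with a median of 0.71, and 3 were higher without both libraries with a packet size. Nop58, a core protein of small nucleolar particles, had 946, 905 and 784 normalized counts in PyMT and 307, 456 and 349 in FVB (1.29 ± 0.19, adjusted p = 0.00206), and Npm1 rose by 1.16 ± 0.26. Myc itself had 211, 359 and 336 against 155, 364 and 286 (0.22 ± 0.35, adjusted p = 0.687), and the groups overlapped. Mycl1, its relative, fell by 3.21 and was not called without PyMT replicate 2. In the BCL2 and p53 group 2 of 21 genes were higher (9.52%, near the 7.75% of all genes), the pro-apoptotic Bid (2.26 ± 0.39) and Bmf (1.19 ± 0.23), and 1 was called lower without PyMT replicate 1 or without both libraries with a packet size. Trp53 had 0.47 ± 0.30 and Cdkn1a, its main target, 0.04 ± 0.52.

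Of 12 tested acute-phase and secreted innate genes 8 were higher (66.7%, against 7.75% of all genes) and 1 lower, with a median of 2.17, and Saa1 and Saa2 above were among them. Lipocalin 2 (Lcn2), which binds bacterial siderophores, had 9812, 11493 and 15138 normalized counts in PyMT and 1300, 1505 and 982 in FVB (3.32 ± 0.26, adjusted p = 0.000248). The chitinase-like Chi3l1 rose from 436, 934 and 490 to 11000, 8636 and 12487 (4.16 ± 0.35), and the receptor that carries immunoglobulin A into milk (Pigr) from 22.9, 63 and 30.6 to 706, 641 and 553 (4.07 ± 0.38). Lipopolysaccharide-binding protein (Lbp) rose by 2.53 ± 0.16. Orm1, an acute-phase protein also made by fat, fell by 4.36, and haptoglobin (Hp) had -0.50 ± 0.22. Lactoferrin (Ltf) varied among the glands, at 5225, 2639 and 647, and did not pass (1.46 ± 0.60).

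Of 18 tested complement genes 10 were lower (55.6%, against 13.0% of all genes) and none higher, with a median of -1.90. Complement C3, the central component, had 3524, 1213 and 1756 normalized counts in PyMT and 16676, 9412 and 6810 in FVB (-2.30 ± 0.46), and the adipocyte-made factor D (Cfd) fell by 3.90. The macrophage-made C1qa, C1qb and C1qc had -0.02, -0.10 and 0.12. The count of lower members was 5, 5 and 4 without PyMT replicate 2, PyMT replicate 3 and FVB replicate 3.

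Of 23 tested interferon-stimulated and antigen presentation genes 1 was lower and none higher, with a median of -0.20, while 20.7% of all genes moved in either direction. The lower gene was beta-2-microglobulin (B2m), the invariant chain of MHC class I, which fell from 6948, 4499 and 9102 to 1334, 1105 and 1406 normalized counts (-2.37 ± 0.28, adjusted p = 0.00072). The class II gene H2-Aa had -0.23 ± 0.30. Without PyMT replicate 1, or without both libraries with a packet size, 1 member was called higher. Psmb9 was listed at 0 in all 6 samples.

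Of 19 tested chemokines and receptors 3 were higher and 5 lower (15.8% and 26.3%, against 7.75% and 13.0% of all genes), and 6 were higher without both libraries with a packet size. Ccl8, a monocyte attractant, rose from 24.2, 41.6 and 29.5 to 530, 185 and 123 normalized counts (3.17 ± 0.58, adjusted p = 0.00544), and the fractalkine receptor Cx3cr1 from 116, 59.2 and 95.1 to 259, 323 and 203 (1.59 ± 0.33). Cxcl1, a neutrophil attractant, was low throughout, with 25.7, 23.5 and 26.8 in PyMT and 0, 0 and 3.28 in FVB. Cxcl12, the stromal ligand of Cxcr4, fell from 2883, 2760 and 2614 to 464, 400 and 245 (-2.85 ± 0.25, adjusted p = 0.000296), as did Cxcl15 (-5.00 ± 0.80), Cxcl9 (-4.52 ± 0.94), Ccl11 (-2.41 ± 0.32) and Cxcl14 (-1.47 ± 0.32). Cxcr4 had 0.76 ± 0.24. Ccl28 was not analysed here, and Ccl19 and Ccl20 were listed at 0.

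The carbonic anhydrases, which interconvert carbon dioxide and bicarbonate, moved in both directions, 4 of 11 higher and 3 lower (36.4% and 27.3%, against 7.75% and 13.0% of all genes). Car12, a membrane form facing the outside of epithelial cells, rose from 2.69, 113 and 30.6 to 2971, 2966 and 3584 normalized counts (6.06 ± 0.87, adjusted p = 0.00176), and Car2, the main cytosolic form, by 1.86 ± 0.42, beside Car6 above and Car8 (1.05 ± 0.32). Car3 of adipocytes, Car4 of capillaries and the mitochondrial Car5b fell by 4.81, 4.79 and 1.63. Without PyMT replicate 3, 2 members were called higher. Of 4 tested aquaporins, which are water channels, 1 was higher and 3 lower. Aqp5 of secretory epithelium rose from 211, 372 and 245 to 2948, 2440 and 5254 (3.74 ± 0.37, adjusted p = 0.000392), while Aqp1 of endothelium, Aqp7 of adipocytes and Aqp11 fell by 2.29, 3.73 and 3.22.

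Week 12 had more called genes than the earlier weeks, but no gene had a difference between tumor and gland that passed the test of week 12 against the other weeks. In the same kind of fit, 534 genes (3.58%) were higher and 964 (6.46%) lower at week 6, 533 (3.57%) and 951 (6.37%) at week 8, and 720 (4.83%) and 1356 (9.09%) at week 10. The PyMT minus FVB difference at week 12 was compared with its mean at weeks 6, 8 and 10 in a fit of all 24 samples. No gene passed an adjusted p of 0.05 by edgeR's quasi-likelihood test or by DESeq2, limma's voom found 4 with a smaller difference, and 390 genes (2.61%) had an unadjusted p under 0.05 by edgeR. On simulated data the edgeR test recovered 45.3% of genes changed 4-fold in PyMT at week 12 only. A gene that did not pass can therefore still differ between weeks.

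The mitosis list had more called members and a larger median log2 fold change at week 12 than at week 6. Its called members numbered 3, 4, 13 and 27 at weeks 6, 8, 10 and 12, and its median 1.36, 1.95, 2.60 and 2.63, but no member passed the test between weeks. Top2a had a mean of 2679 ± 472, 2375 ± 214, 2356 ± 592 and 2233 ± 381 normalized counts in PyMT and of 1044 ± 975, 558 ± 433, 376 ± 381 and 222 ± 211 in FVB at the 4 weeks (SD, n = 3). The PyMT means differed by less than the SD of weeks 6 and 10, and the FVB means, whose SD was close to the mean itself, were highest at week 6 and lowest at week 12. The adipocyte list had medians of -2.51, -3.93, -4.82 and -4.07, the acute-phase list 3.18, 3.39, 3.14 and 2.17, and the milk list 3.23, 2.61, 3.15 and 1.00. Mean Csn2 in PyMT was 14609 normalized counts at week 6 and 1551 at week 12 (SD 9052 and 1139, n = 3). Lcn2 had a log2 fold change of 3.32 at week 12 after 4.59, 4.31 and 4.63 at weeks 6, 8 and 10, with glands at 1300, 1505 and 982 in week 12 against at most 795 before (unadjusted p = 0.00156 between weeks, edgeR adjusted p = 1.00).

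**Figure D5:**
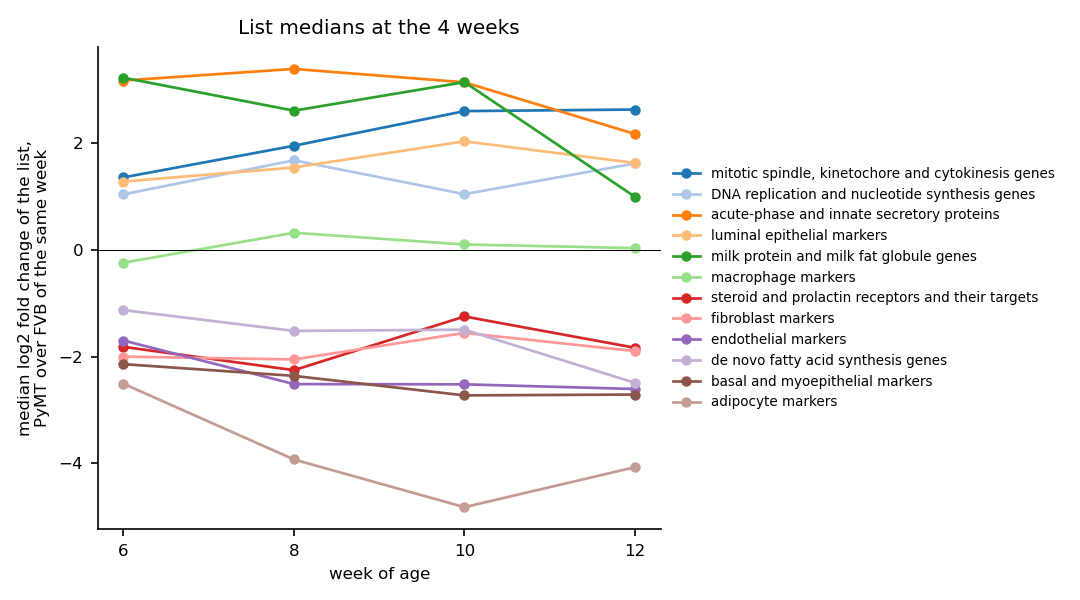
Median log2 fold change (PyMT over FVB) of 12 gene lists at weeks 6, 8, 10 and 12, 3 samples per group at each week. The mitosis median rises from 1.36 to 2.63 and the acute-phase median ends at 2.17, and no member of any list passed the test of week 12 against the other weeks.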

How the data were processed

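Total RNA of snap-frozen tumors and glands was depleted of ribosomal RNA, primed with random hexamers and oligo-dT and made into strand-marked libraries. The authors aligned the reads with GSNAP to mm9 and counted them per gene with HTSeq, and the deposited table holds raw counts of 37991 genes. The counting's strand setting and annotation version are not given in the sources used here, so antisense or overlapping genes may share reads. Gene coordinates and exon lengths for RPKM came from GENCODE M1 (mm9), which held 37205 of the genes.

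The counts were analysed with edgeR 4.0.16 in R 4.3.3. Genes reaching 1 CPM in 12 or more of the 24 samples were kept (14918). The 6 samples of week 12 were scaled by TMM and fitted with group as the only term, and the quasi-likelihood test was adjusted by the Benjamini-Hochberg method over all tested genes. A gene was called when it passed an adjusted p of 0.05 and changed more than 2-fold. The test of week 12 against weeks 6, 8 and 10 was fitted over the 8 groups of the series, 24 samples in all. For display, DESeq2 1.42.0 size factors of the 24 samples gave normalized counts. No pair of replicates agreed within sampling noise (at least 20.4 chi-square per gene). On simulated data with genes changed 4-fold, the week 12 fit recovered 60.5% of them and the test between weeks 45.3%.

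The members, gene lists and tests were chosen with earlier results of these data known. Genes were named by rule: the 12 largest increases and decreases among called genes with a mean of at least 100 normalized counts and no overlap, up to 4 called members per list and direction, and the members that define a list. Alternatives were other scaling, filters, tests and samples. Totals of 6969375 to 8898264 counts limit what could be detected among low genes, and this holds for counting error only. Same-numbered PyMT and FVB replicates did not deviate together. Some genes are not reported here.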

Additional observations from a re-analysis of the deposited data

How the results depend on the processing

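Of 261 named genes recomputed under 19 alternatives (247 of them in the DESeq2 test), no called gene changed sign. Calls were lost for 66 when tested against a fold change of 2, for 41 without PyMT replicate 3, for 36 in the fit of all 24 samples, and for at most 34 in each other alternative. The count of higher genes was 2054 with library size as the only scaling and 410 when tested against a fold change of 2, and that of lower genes was 953 in the latter test, which asks for more than the 2-fold limit alone. Leaving out 1 sample at a time gave 775 to 1342 higher and 1414 to 2096 lower genes. Replicate numbers did not pair the samples: the correlations of deviations for same-numbered samples were -0.02, 0.02 and -0.03, no sample matched best with its own number, and the fit with the replicate block called 1076 higher and 1711 lower genes. Other settings (RLE scaling, both filters, DESeq2, likelihood ratio, exact and voom tests, the fit of all 24 samples and counts divided by the packet size) gave 828 to 1437 higher and 1504 to 2282 lower genes. Leaving out both libraries with a packet size, chosen after seeing the data, gave 1393 and 2257. For week 12 against the other weeks voom called 4 genes with a smaller difference where edgeR called 0. The cause of these shifts was not tested.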

Other observations

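The following groups were chosen after their values had been seen and carry no test of their own. Replication-dependent histone genes, which have few or no introns and mostly lack a poly(A) tail, were measured because the libraries were not selected for poly(A). Of 57 tested genes of the Hist1, Hist2, Hist3 and Hist4 clusters 44 were higher in PyMT and none lower, with a median log2 fold change of 2.52, against 7.75% of all genes higher. They summed to 25766, 19595 and 34857 normalized counts in PyMT and 6098, 11080 and 6288 in FVB, where replicate 2 was again the highest gland. Hist1h3c, a histone H3 gene, had 625, 690 and 996 in PyMT and 16.1, 124 and 52.5 in FVB (3.63 ± 0.59, edgeR adjusted p = 0.00319), whereas Hist1h1c, a linker histone gene, had 0.54 ± 0.19 (edgeR adjusted p = 0.0697). Many of these genes are near-identical, so reads can be lost or split between copies and the level of any 1 of them is uncertain.

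Transcripts of the mitochondrial genome were lower. Of 11 tested genes 9 fell and none rose, against 13.0% of all genes lower, with a median of -1.85. The 11 genes took 1.58%, 1.90% and 1.37% of counts in PyMT against 6.13%, 5.49% and 3.57% in FVB. A large part was ribosomal RNA, of which the libraries had been depleted. The ribosomal mt-Rnr2 had 54135, 74237 and 39846 normalized counts in PyMT and 354444, 230013 and 186836 in FVB. Whether depletion differed between samples was not tested. The genes that were not called, mt-Co2 and mt-Co3, had means of only 14.1 and 12.3 over the 6 samples. The cytochrome oxidase gene mt-Co1 had 44066, 40101 and 42418 normalized counts in PyMT and 202022, 147557 and 90275 in FVB (-1.75 ± 0.29, edgeR adjusted p = 0.00369). Without FVB replicate 1, the gland with muscle RNA, 8 of the 11 were called lower.

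Among cytochrome P450 genes 12 of 23 tested were lower and none higher, against 13.0% of all genes lower, with a median of -1.36. Besides Cyp3a57 and Cyp2e1, the fatty acid hydroxylase Cyp4b1 had 79.2, 63 and 52.7 normalized counts in PyMT and 603, 481 and 859 in FVB (-3.27 ± 0.29, edgeR adjusted p = 0.000314). Of the 6 tested glucuronosyltransferase genes 4 fell, again against 13.0% of all genes. All 4 were of the Ugt1a cluster, whose members share exons and whose single levels are uncertain, and 2 were called without FVB replicate 1. Ugt1a6a, the member with the smallest adjusted p, had 37, 59.8 and 14.8 in PyMT and 354, 329 and 407 in FVB (-3.25 ± 0.46, edgeR adjusted p = 0.00166).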
